A study of Mus musculus with 8 samples.

Results

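The comparison described here is that of pancreatic islets from Irs2-/- mice with islets from wild-type (WT) mice when both genotypes had drunk sodium tungstate. It covers 4 of the 8 arrays of the study, the 2 titled as treated Irs2-/- samples and the 2 titled as treated WT samples, and was read across 13369 tested genes. All mice were C57Bl/6 males that were 13 weeks old at the end. Treated mice received sodium tungstate in distilled drinking water for 21 days from 10 weeks of age, and the untreated WT and Irs2-/- mice, which enter here for the shared estimate of the spread and as a background, drank distilled water alone. The sample labels give the tungstate concentration as 2 mg/dl, whereas the study design gives 2 mg/ml, so the dose is not settled. No source used here gives the construction of the Irs2 deletion, the isolation of the islets or the number of mice behind each sample, so p-values reflect only how far these samples vary.

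Irs2 (insulin receptor substrate 2) is a docking protein that the insulin and IGF-1 receptors phosphorylate, and through it they activate PI3-kinase and AKT. Mice without it develop diabetes because beta cells fail to expand against insulin resistance. Tungstate is an oxyanion with insulin-like effects that has been studied as an oral glucose-lowering compound, and it is known to activate ERK signalling in several cell types. A genotype comparison within treated mice asks which expression differences of the Irs2-/- islet are present while tungstate is given.

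Values are log2 expression after RMA normalization, with a difference of 1 on this scale being a 2-fold change. They are written below as replicates 1 and 2 of a group, and a difference is Irs2-/- minus WT ± its standard error (SE). A gene was called when its limma p-value, adjusted over all tested genes by the method of Benjamini and Hochberg, was under 0.05. All 4 treated arrays carried islet RNA by its defining hormones. Ins2 stood at 14.75 and 14.73 in treated WT and at 14.71 and 14.75 in treated Irs2-/- islets, and Gcg at 14.37 and 14.24 against 14.39 and 14.24. These levels lie at the top of the arrays' range, where a probe set responds little to further RNA, so they say little about hormone expression. The 2 treated Irs2-/- arrays were less alike (Pearson r 0.98 across genes) than the 2 treated WT arrays (r 0.992). The untreated WT pair and the untreated Irs2-/- pair also had r 0.98, so the treated WT pair was the unusually close one. Replicate 1 had the lower mean over 22 beta cell function genes (10.24, against 10.72 in replicate 2 and 11.12 and 11.05 in WT), and replicate 2 the higher mean over 21 acinar genes (11.78, against 10.73 in replicate 1 and 9.9 and 9.87 in WT). Of the genes called below, 83.2% lay farther from the WT mean in replicate 1, against 54.9% of all tested genes.

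Irs2 itself was measured first, since it checks the labels. Its probe set read 7.89 and 7.61 in treated WT islets and 4.78 and 4.86 in treated Irs2-/- islets. Both Irs2-/- arrays lay far below both WT arrays, with a difference of -2.93 ± 0.16 (n = 2 per group, adjusted p = 0.000601). The untreated groups showed nearly the same gap, -3.10, and the test of the difference between these gaps, the genotype by treatment interaction, gave an adjusted p of 0.946. No other gene of a 35-gene list of insulin and IGF signalling was called among the 30 that could be tested. The insulin receptor gene Insr read 8.18 and 8.27 in WT and 7.82 and 8.02 in Irs2-/- islets (adjusted p = 0.314). For Irs1, the closest relative of Irs2, the values were 8.07 and 8.25 against 7.53 and 8.05 (adjusted p = 0.404), and the IGF-1 receptor gene Igf1r overlapped between the genotypes. The growth factor gene Igf1 was at 4.75 and 4.88 in WT and at 6.50 and 5.78 in Irs2-/- islets, a difference of 1.32 ± 0.27 that missed the threshold (adjusted p = 0.0664). Insrr, which encodes an orphan receptor of the insulin receptor family that is stimulated by alkaline pH, was outside the list and fell from 8.62 and 8.70 to 7.61 and 7.78 (-0.97 ± 0.13, adjusted p = 0.0247).

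In all, 137 genes differed between the treated genotypes, 1.02% of those tested. Of these, 85 were higher in Irs2-/- islets (0.636%) and 52 were lower (0.389%), and 80 differed by at least 2-fold (54 higher and 26 lower). In each of the 137 the values of both arrays of one genotype lay above those of the other. That alone is common here, because 22.4% of all tested genes had both Irs2-/- arrays above both WT arrays and 25.7% had them below. The number of calls rests on single arrays. It was 3 without WT treated replicate 1, 4 without WT treated replicate 2, 18 without Irs2-/- treated replicate 1 and 679 without Irs2-/- treated replicate 2, and 69 without either untreated Irs2-/- array, which contribute only to the spread. All 137 kept their direction in each of these fits. That was fixed in advance, because their treated arrays do not overlap and the untreated arrays do not enter the difference. An unadjusted p under 0.05, which is counted for some lists below, was reached by 2147 genes, 16.1% of those tested. Further probe sets, 70 in number, name 49 of the called genes, and 65 of them had the direction of the one used while 12 were called themselves. Gast and Irs2 were called in all 18 alternative analyses counted by gene, and Dpp10 and Gm2115 in 17.

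**Figure D1:**
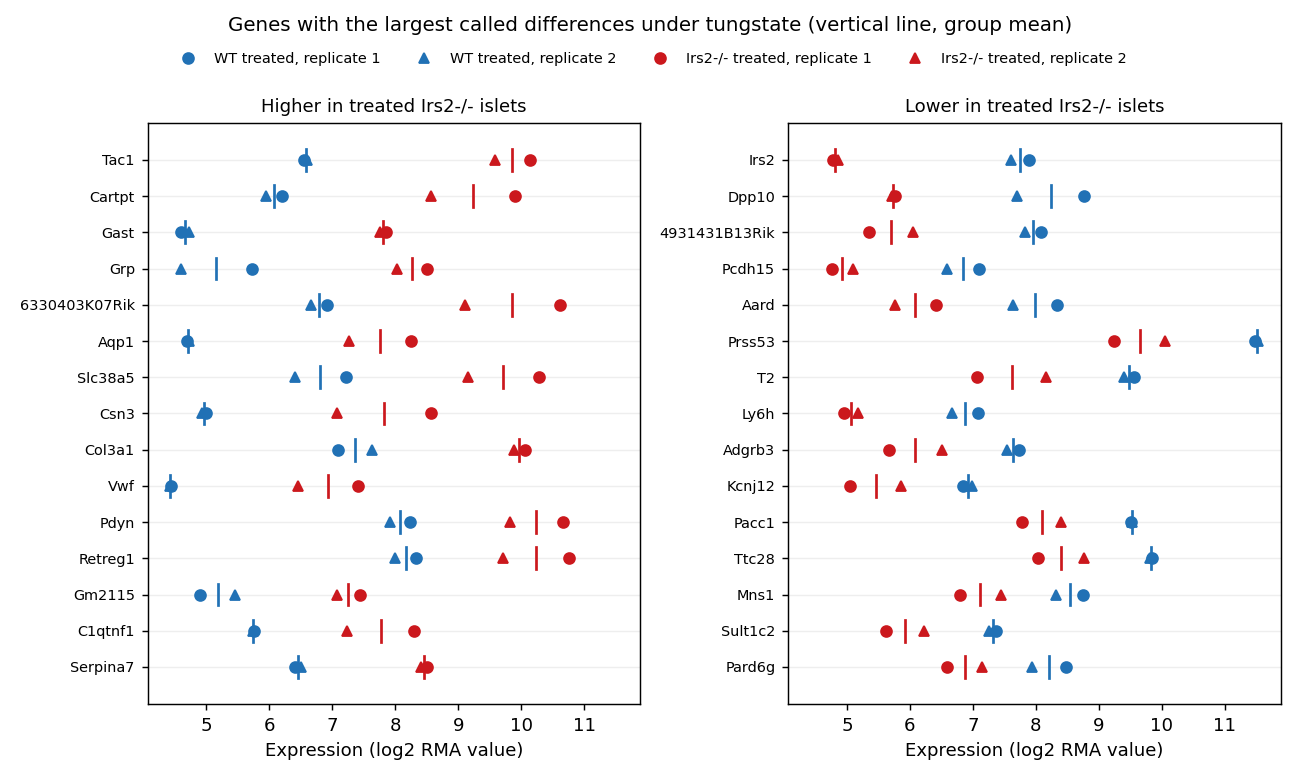
Expression (log2 RMA value, horizontal axis) of the 15 genes with the largest called difference in each direction, on the 4 treated arrays. Blue is WT and red Irs2-/-, circles are replicate 1, triangles replicate 2, and vertical lines are group means. The blue and red points of every gene are apart, and the red triangle lies nearer to the WT points than the red circle for most genes.

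The 4 genes with the largest called rise were precursors of secreted peptides. Of 24 listed precursors of neuropeptides and hormones 19 could be tested, and 6 rose (Tac1, Cartpt, Gast, Grp, Pdyn and Vgf) while 0 fell. Among all tested genes 0.636% were called higher. An unadjusted p under 0.05 was reached by 11 of the 19, against 16.1% of all tested genes. The median difference over the 19 was 0.87, against -0.01 over all tested genes. The sequences just upstream of the start of 3 of these genes and of Sst, a peptide gene that fell, are shown because the results on secreted peptides turn on these genes. They are the 150 bases before the annotated start in RefSeq (GRCm38.p6), 5′ to 3′ on the gene's strand, with capitals marking the palindromic cyclic AMP response element TGACGTCA. They were chosen after the values were seen.
Gast: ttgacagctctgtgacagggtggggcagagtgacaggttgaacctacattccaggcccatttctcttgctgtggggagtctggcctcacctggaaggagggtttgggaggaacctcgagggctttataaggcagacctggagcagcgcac
Tac1: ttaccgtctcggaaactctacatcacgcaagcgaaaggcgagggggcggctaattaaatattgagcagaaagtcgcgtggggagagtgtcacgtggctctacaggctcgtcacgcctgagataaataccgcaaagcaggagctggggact
Cartpt: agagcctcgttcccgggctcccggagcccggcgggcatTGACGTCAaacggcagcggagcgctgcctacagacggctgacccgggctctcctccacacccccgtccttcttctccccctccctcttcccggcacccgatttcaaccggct
Sst: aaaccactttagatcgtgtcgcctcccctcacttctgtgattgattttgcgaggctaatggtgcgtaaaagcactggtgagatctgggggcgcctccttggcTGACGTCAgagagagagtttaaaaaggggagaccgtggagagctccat
These lie at chr11:100334257-100334406 (plus strand) for Gast, chr6:7554911-7555060 (plus) for Tac1, chr13:99900684-99900833 (minus) for Cartpt and chr16:23890845-23890994 (minus) for Sst. The element begins 112 bases upstream of the start in Cartpt and 48 bases upstream in Sst, and these letters are not in the windows of Gast and Tac1. In the 300-base windows of all 32851 RefSeq promoters (250 bases before and 50 after the start, both strands) it occurs in 1.79%. Counted by gene, once where any promoter of the gene holds it, it occurs in 3 of 20 genes of the peptide list. Among the called genes with a promoter it occurs in 4 of 103. These 2 shares count genes and the 1.79% counts promoters, so they are not directly comparable. Cartpt, which rose, and Sst, which fell, both carry the element.

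Tac1, the precursor of substance P and neurokinin A, read 6.56 and 6.60 in treated WT islets and 10.13 and 9.58 in treated Irs2-/- islets. This was the largest rise among the called genes, 9.71-fold (3.28 ± 0.46, adjusted p = 0.0271). Cartpt, which encodes a peptide made by islet endocrine cells and neurons, rose from 6.21 and 5.95 to 9.91 and 8.56 (3.15 ± 0.40, adjusted p = 0.0219). Grp, the gastrin-releasing peptide gene, stood at 5.72 and 4.60 in WT and at 8.50 and 8.02 in Irs2-/- islets, so that the lower mutant array was still well above the higher WT array (3.10 ± 0.52, adjusted p = 0.0434). For Pdyn, the precursor of the dynorphins, the values were 8.23 and 7.92 against 10.66 and 9.82 (2.16 ± 0.30, adjusted p = 0.0271). Vgf, a granin-like protein of secretory granules that is cut into several peptides, rose from 7.58 and 7.75 to 9.77 and 9.33 (1.88 ± 0.16, adjusted p = 0.00778). Each of these 5 was also called higher in untreated Irs2-/- islets, by 1.88 to 3.28 in the treated and by 2.72 to 3.36 in the untreated comparison, and none passed the interaction test, where Vgf came closest (adjusted p = 0.213).

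Gast, the gene of the stomach hormone gastrin, which adult islets scarcely express, had the smallest p-value of all genes. It read 4.60 and 4.72 in treated WT islets, under the level of 5.27 that was used to leave out dim genes, and 7.85 and 7.76 in treated Irs2-/- islets. The difference (3.15 ± 0.13, adjusted p = 0.000164) was smaller than in untreated mice, where the WT arrays were at 4.53 and 4.69 and the Irs2-/- arrays at 10.00 and 10.26 (5.52). All 4 WT arrays were thus under the level for dim genes, which Gast passed through the Irs2-/- arrays, and the differences from WT may be understated. The difference between the 2 genotype effects, -2.37 ± 0.19, passed the interaction test (adjusted p = 0.021). Nmb, the neuromedin B gene, was the other peptide gene to pass it. It was 5.74 and 5.64 against 5.71 and 5.75 under tungstate (0.04 ± 0.14), and 5.66 and 5.37 against 7.54 and 7.75 without it (2.13, interaction adjusted p = 0.0263). Vip and Gal, whose peptides are best known from islet nerves, had gaps of 2.83 ± 0.68 and 2.14 ± 0.46 without overlap of the arrays and missed the threshold (adjusted p = 0.0935 and 0.0742). Of the precursors that islet cells normally release in quantity, Scg2 was at 14.06 and 14.11 against 14.06 and 13.96. These levels are near the top of the arrays' range, where a difference can be understated.
Leaving out WT treated replicate 1 or replicate 2 left 1 of the 6 peptide genes called, and leaving out Irs2-/- treated replicate 1 left 3.

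**Figure D2:**
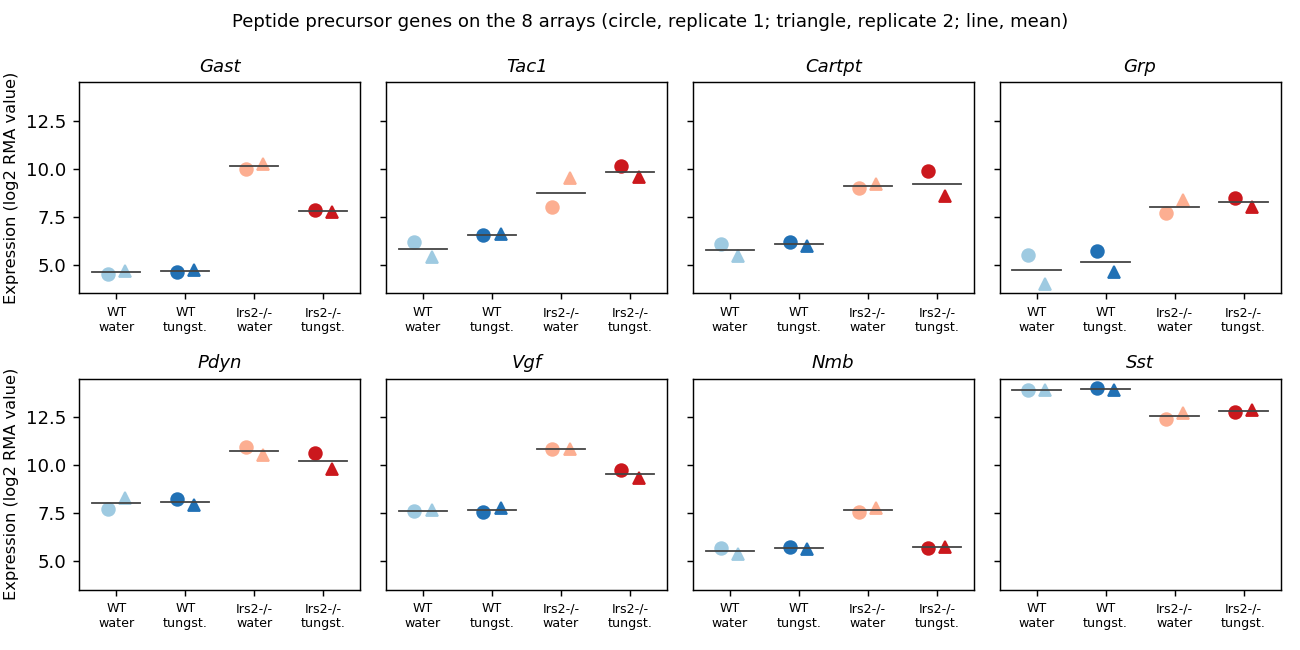
Expression (log2 RMA value) of 8 peptide precursor genes on the 8 arrays, by genotype and drinking water (circles, replicate 1; triangles, replicate 2; lines, group means). Under tungstate the Irs2-/- arrays of Gast, Tac1, Cartpt, Grp, Pdyn and Vgf lie above the WT arrays, those of Nmb coincide with them, and those of Sst lie below them.

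Somatostatin was the 1 gene called among 10 tested hormones and markers of the other islet cells. Sst, the product of delta cells, fell from 14.02 and 13.93 in treated WT to 12.79 and 12.88 in treated Irs2-/- islets (-1.14 ± 0.13, adjusted p = 0.0199), and by nearly as much in untreated islets (-1.35). The WT arrays were near the top of the range, where a difference can be understated. In a tissue made of several cell types, fewer delta cells and less somatostatin RNA per delta cell cannot be told apart. Hhex, the transcription factor that defines delta cells, was at 8.16 and 7.93 against 7.65 and 7.40, a difference of -0.52 ± 0.15 that was not called (adjusted p = 0.144). Gcg, from alpha cells, differed by 0.01 ± 0.12 near the top of the range.

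Among the 22 tested genes of 30 listed for beta cell function, 1 fell and 0 rose, while 16 lay below 0 and 13 had an unadjusted p under 0.05, against 16.1% of all tested genes. The median difference was -0.48. Pcx encodes pyruvate carboxylase, which refills the citric acid cycle when glucose is abundant, and it fell from 9.60 and 9.49 to 8.37 and 8.53 (-1.10 ± 0.14, adjusted p = 0.0254). Pkm and Gpd2, also of glucose metabolism, were called lower, whereas 17 of the 25 tested glycolysis genes lay above 0 with a median of 0.08. Gpd2, the mitochondrial enzyme of the glycerol phosphate shuttle, fell from 10.41 and 10.18 to 9.52 and 9.38 (-0.84 ± 0.15, adjusted p = 0.0472). Pkm, pyruvate kinase, fell from 9.91 and 10.06 to 9.15 and 9.06 (-0.88 ± 0.15, adjusted p = 0.0457), the only called gene of the glycolysis list. Neither Pkm nor Gpd2 was called once any of the 4 treated arrays was left out.

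On genes that mark the mature beta cell the treated Irs2-/- arrays stood apart from each other. Slc2a2, the glucose transporter GLUT2, was at 13.26 and 13.00 in WT and at 11.17 and 12.43 in Irs2-/- islets. Ucn3, the peptide urocortin 3, was at 11.81 and 11.97 against 10.20 and 11.22. For the cation channel gene Trpm5 the values were 10.45 and 10.12 against 8.07 and 9.13, and for Gad1, which makes GABA, 10.85 and 10.61 against 7.05 and 9.24. In each of these the mutant arrays lay below the WT arrays, with replicate 1 lower by 1 log2 unit or more than replicate 2, and none was called (adjusted p = 0.119, 0.117, 0.0576 and 0.0845). Glp1r, the GLP-1 receptor gene, was the exception in that its mutant arrays lay close together (7.63 and 7.12 against 5.77 and 6.07; adjusted p = 0.088). Without Irs2-/- treated replicate 2, 11 of the 22 genes were called lower, and without replicate 1, 0 were. In untreated islets 12 were called lower and 1 higher. The interaction test passed for 0 of the 22, with a smallest adjusted p of 0.683.

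Transcription factors of islet cells gave 0 limma calls among the 18 tested of 25 (3 at an unadjusted p under 0.05, a share near the 16.1% of all tested genes). Even so, 15 of the 18 lay below 0. The median was -0.15, against -0.45 in untreated islets, where 7 were called lower. Nkx6-1, which maintains beta cell identity, read 10.88 and 10.82 in WT and 9.76 and 10.29 in Irs2-/- islets (-0.82 ± 0.19, adjusted p = 0.0897). Pdx1 was at 10.05 and 10.02 against 9.59 and 9.90 (adjusted p = 0.439). Atf5, a stress-response transcription factor outside the list, fell from 10.16 and 10.26 to 9.26 and 9.44 (-0.86 ± 0.12, adjusted p = 0.0265). Of 17 tested genes that are silent in mature beta cells or mark dedifferentiation, Gast was the only one called, although 14 lay above 0. Aldh1a3, an aldehyde dehydrogenase that marks failing beta cells, differed by 2.10 ± 0.55 with WT arrays at 5.30 and 6.45 and mutant arrays at 8.73 and 7.21 (adjusted p = 0.112).

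Some of the other genes with large falls encode channels, a protease and adhesion proteins, and no list of such genes was counted. Dpp10, an auxiliary subunit of A-type potassium channels, dropped from 8.77 and 7.71 to 5.76 and 5.72 (-2.50 ± 0.29, adjusted p = 0.0199), the largest fall after that of Irs2 among the called genes. Kcnj12, an inward rectifier potassium channel, fell from 6.85 and 6.99 to 5.05 and 5.86 (-1.46 ± 0.24), and Pacc1, the proton-activated chloride channel, from 9.52 and 9.52 to 7.78 and 8.40 (-1.43 ± 0.20). Prss53, a serine protease gene expressed in beta cells, fell from 11.48 and 11.53 to 9.24 and 10.05 (-1.86 ± 0.24, adjusted p = 0.0225). The cell adhesion genes Pcdh15 and Adgrb3 were lower by 1.92 and 1.55. Stxbp5l (tomosyn-2), an inhibitor of granule fusion, fell from 7.39 and 7.24 to 6.20 and 6.42 (adjusted p = 0.0271). All of these were also called lower in untreated Irs2-/- islets.

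Individual genes of other functions rose too. Slc38a5, a glutamine transporter that is known to increase in alpha cells when amino acids accumulate, rose from 7.22 and 6.40 to 10.28 and 9.15 (2.91 ± 0.37, adjusted p = 0.0219), and it was the only gene called of the 15 tested for amino acid transport, GABA and serotonin, 12 of which lay below 0. Without Irs2-/- treated replicate 2, 5 genes of this list were called lower and 1 higher. Aass, the first enzyme of lysine breakdown, rose from 5.63 and 5.98 to 7.67 and 7.88 (1.97 ± 0.20, adjusted p = 0.0149). Csn3, the milk protein kappa-casein, was at 4.99 and 4.94 in WT and at 8.56 and 7.08 in Irs2-/- islets (2.86 ± 0.39, adjusted p = 0.0265). Like Gast, it was under the level for dim genes on all WT arrays. In untreated mice Csn3 differed by 5.69, and the interaction was not called (adjusted p = 0.345). Serpina7, the thyroxine-binding globulin gene, had a gap of 2.00 ± 0.16 with tight replicates, at 6.40 and 6.51 against 8.51 and 8.41 (adjusted p = 0.0077), and Retreg1, a receptor for autophagy of the endoplasmic reticulum, rose from 8.33 and 7.99 to 10.76 and 9.71. Met, the receptor of hepatocyte growth factor, rose by 1.23 ± 0.18 (adjusted p = 0.0307).

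Markers of blood vessels lay above 0 in the treated Irs2-/- islets, and a few of them rose. Of 15 listed endothelial genes 14 could be tested, all 14 had a difference above 0, 3 rose (Vwf, Tek and Plvap) and 0 fell, and the median was 0.62. Of all tested genes 0.636% were called higher. An unadjusted p under 0.05 was reached by 11 of the 14, against 16.1% of all tested genes. Vwf, the von Willebrand factor gene, was at 4.43 and 4.42 in treated WT islets, under the level for dim genes, and at 7.41 and 6.45 in treated Irs2-/- islets (2.50 ± 0.32, adjusted p = 0.0234). Tek, the angiopoietin receptor gene, rose from 6.06 and 6.43 to 7.62 and 7.16 (1.15 ± 0.18, adjusted p = 0.0398), and Plvap, which builds the diaphragms of fenestrated capillaries, from 9.54 and 9.65 to 10.57 and 10.31 (0.85 ± 0.14, adjusted p = 0.0416). The widely used marker Pecam1 overlapped between the genotypes (6.01 and 6.40 against 7.66 and 6.21), while for Cdh5, VE-cadherin, the values were 6.91 and 7.08 against 7.96 and 7.46 (adjusted p = 0.0897). The mean level of the list per array was 7.29 and 7.40 in WT and 8.28 and 7.88 in Irs2-/- islets.

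Several further called genes are known from endothelium and vessel walls, and were picked out after their values were seen. Aqp1, a water channel of capillary endothelium and of duct cells, rose from 4.70 and 4.73 to 8.25 and 7.27 (3.05 ± 0.36, adjusted p = 0.0199). Its treated WT arrays were under the level for dim genes. Ackr1, the chemokine-binding receptor of venules, rose from 5.97 and 6.03 to 7.50 and 7.27 (1.38 ± 0.12, adjusted p = 0.00884), and the apelin receptor gene Aplnr from 4.85 and 4.90 to 6.00 and 6.58 (1.41 ± 0.19), although a further probe set of Aplnr gave 0.19 (adjusted p = 0.636). The treated WT arrays of Aplnr were also under the level for dim genes. Partner subunits rose together in 2 cases. Abcc9 and Kcnj8 encode the subunits of the potassium channel of pericytes that closes with ATP, and they were higher by 1.44 ± 0.23 and 0.96 ± 0.16. For Kcnj8 the treated WT arrays were under the level for dim genes. Gucy1a1 and Gucy1b1 encode the partners of the nitric oxide receptor guanylate cyclase, and they were higher by 1.71 ± 0.24 and 1.02 ± 0.11, although a further probe set of Gucy1a1 gave 0.34 (adjusted p = 0.259).

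Of 22 listed genes of stromal cells 21 were tested, 20 lay above 0, 2 rose and 0 fell, with a median of 1.20. An unadjusted p under 0.05 was reached by 17 of the 21, against 16.1% of all tested genes, of which 0.636% were called higher. Col3a1, a fibrillar collagen, rose from 7.08 and 7.63 to 10.05 and 9.88 (2.61 ± 0.42, adjusted p = 0.0398), and Sparc, a matrix glycoprotein, from 9.27 and 9.24 to 10.23 and 9.97 (0.85 ± 0.13, adjusted p = 0.0398), while further probe sets of Sparc gave 0.78 and -0.06. Col1a2 was at 6.97 and 7.06 against 9.85 and 8.91 and missed the threshold (adjusted p = 0.0595). In untreated WT islets Col3a1 read 10.04 and 8.55 and Aqp1 6.44 and 5.56, so that both were lowest in the treated WT group. The genotype difference of Col3a1 in untreated mice was 1.34 (adjusted p = 0.0649), that of Vwf 1.18 and that of Aqp1 1.92, and none of the 3 passed the interaction test (adjusted p = 0.79, 0.695 and 0.782). The number of stromal calls was 0 without either treated WT array, Irs2-/- treated replicate 1 or either untreated Irs2-/- array, 7 without Irs2-/- treated replicate 2 and 9 without either untreated WT array, and 0 when probe sets were averaged. Endothelial calls were 0 without either treated WT array or Irs2-/- treated replicate 1, 8 without Irs2-/- treated replicate 2, 1 without either untreated Irs2-/- array and 2 without either untreated WT array.

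Exocrine genes lay above 0 as well. All 21 tested of 31 acinar genes lay above 0, with 0 called by limma (1 at an unadjusted p under 0.05) and a median of 1.25. All 5 tested of 7 genes of the Reg family lay above 0, with 0 called (4 at an unadjusted p under 0.05) and a median of 2.64. Reg3b, a secreted lectin of injured pancreas, read 5.62 and 6.12 in treated WT and 11.62 and 10.58 in treated Irs2-/- islets. That is the largest difference of any tested gene, 5.23, but its SE was 1.40 (adjusted p = 0.116), since the untreated WT arrays used for the spread were at 3.86 and 8.62. In a fit on the 4 treated arrays alone 4 of the 5 Reg genes were called. Without either untreated WT array 2 acinar and 2 Reg genes were called higher, and without Irs2-/- treated replicate 2 there were 1 Reg and 3 duct genes. The acinar protease gene Prss3 was at 5.47 and 5.53 against 6.53 and 11.47, the mutant arrays being far apart. All 10 tested duct genes of 13 lay above 0, with 0 called by limma (8 at an unadjusted p under 0.05, a cut that 16.1% of all tested genes pass), and Krt19, a duct keratin, was at 5.03 and 5.01 against 7.11 and 5.77. With the acinar level as a covariate 290 genes were called, 113 of them among the 137, and in the lists 2 endothelial, 12 stromal and 7 peptide genes were called higher. How far differing amounts of exocrine or vascular tissue enter the other gene groups was not tested beyond this covariate.

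**Figure D3:**
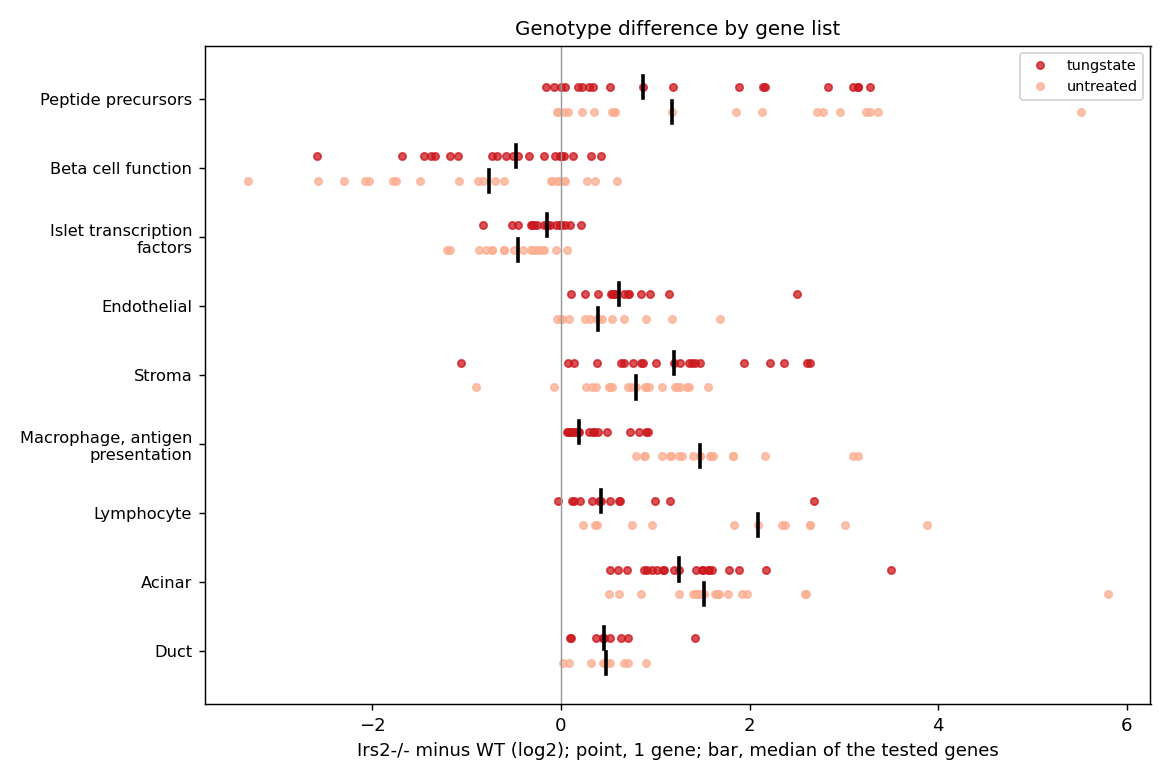
Genotype difference (Irs2-/- minus WT, log2, horizontal axis) of the tested genes of 9 lists, under tungstate (red) and without it (pale). Each point is 1 gene and each black bar the median of a list. Under tungstate the macrophage and lymphocyte medians are at 0.19 and 0.43, against 1.47 and 2.09 without it, whereas the endothelial and stromal medians are 0.62 and 1.20, against 0.39 and 0.79.

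The lists of immune genes gave no calls between the treated genotypes. None of 19 tested macrophage and antigen presentation genes (of 22) was called by limma, although all 19 were above 0 and 4 had an unadjusted p under 0.05, a share near the 16.1% of all tested genes, and the median was 0.19. Cd68, a lysosomal protein of macrophages, was at 5.07 and 4.97 in WT and at 5.29 and 5.72 in Irs2-/- islets, and the complement gene C1qc at 6.71 and 6.69 against 7.14 and 6.95 (adjusted p = 0.231 and 0.256). In untreated mice 18 of the 19 were called higher in Irs2-/- islets, with a median of 1.47. All 19 had a smaller difference under tungstate, as had 94.7% of all genes called in untreated mice, and none passed the interaction test. The smallest adjusted p was 0.092, that of Aif1, a calcium-binding protein of macrophages, which was at 5.85 and 5.48 against 5.91 and 6.01 under tungstate and at 5.79 and 5.83 against 7.72 and 7.53 without it. The chemokine gene Cxcl9 had the same adjusted interaction p, with differences of 0.36 and 3.86. All its WT arrays were under the level for dim genes, which it passed through the untreated Irs2-/- arrays. Its treated Irs2-/- arrays were at 4.57 and 5.41, so the difference of 0.36 was read near or under that level. The 13 tested lymphocyte genes (of 19) gave 0 calls, with 1 at an unadjusted p under 0.05. The interferon-induced membrane protein genes Ifitm3 and Ifitm1 were called. They rose from 7.74 and 8.06 to 9.93 and 9.26 and from 5.67 and 5.79 to 7.63 and 6.98 (adjusted p = 0.0303 and 0.0271). Both belonged to no list used here. The 18 tested genes of the interferon response list gave 0 limma calls (4 at an unadjusted p under 0.05). So did 13 tested genes of cytokines and their targets (2), both again near the share of all genes. Of the interferon list 16 lay above 0 (median 0.23), and of the cytokine list all 13 did (median 0.37).

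Targets of signalling and lipid synthesis showed few calls. Dusp6, a phosphatase that ERK induces as its own brake, rose from 8.02 and 7.70 to 9.78 and 9.20 (1.63 ± 0.20, adjusted p = 0.0199). It was the 1 called gene of 26 tested for ERK feedback and immediate early response, where the median was 0.40. With 1 treated array left out, the median of this list ranged from 0.01 to 0.67. In untreated mice Dusp6 differed by 2.24, and its interaction was not called (adjusted p = 0.783). Etv5 and Spry4, further targets of ERK, were at 7.40 and 7.15 against 8.27 and 7.98 and at 5.75 and 5.85 against 6.38 and 6.51, just missing the threshold (adjusted p = 0.0521 and 0.0534). Dusp26, a related phosphatase gene outside the list, rose by 1.55 ± 0.13 (adjusted p = 0.00788). Scd2, a fatty acid desaturase, fell from 10.75 and 10.59 to 9.99 and 9.91 (-0.72 ± 0.11, adjusted p = 0.0352), the 1 call among 22 tested genes of sterol and fatty acid synthesis, of which 19 lay below 0. Elovl6, a fatty acid elongase, and Acly, which makes acetyl-CoA for lipids, missed the threshold (-0.79 ± 0.14 and -0.57 ± 0.11, adjusted p = 0.0509 and 0.0599). Mgll, the lipase that ends triglyceride breakdown, rose by 0.80 ± 0.12 (adjusted p = 0.0384) and was the 1 call of 23 tested genes of lipid droplets and fatty acid oxidation, and its further probe sets gave 0.68, 0.42 and -0.04.

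Genes that respond to metals gave no calls. The metallothionein genes Mt1 and Mt2, which bind zinc and copper, were at 12.43 and 12.88 against 11.96 and 12.03 and at 11.26 and 11.80 against 10.92 and 10.64 (adjusted p = 0.161 and 0.192), and 0 of 11 tested genes of metallothioneins and zinc transport were called by limma (3 at an unadjusted p under 0.05), with 9 below 0. The 10 tested genes of the molybdenum cofactor and its enzymes, chosen because tungsten can replace molybdenum in them, gave 0 limma calls (1 at an unadjusted p under 0.05). In the list of cell cycle genes 0 of 30 were called, with 14 above 0 and 3 at an unadjusted p under 0.05. Likewise limma called 0 of 30 genes of the unfolded protein response, 0 of 40 of oxidative phosphorylation, 0 of 26 of antioxidant defence, 0 of 25 of apoptosis and 0 of 3 of Schwann cells, with 5, 2, 7, 3 and 1 at an unadjusted p under 0.05, where all tested genes gave 16.1%. None of 8 red blood cell genes could be tested, and of 26 tested genes of exocytosis Vgf was the only call.

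The genotype difference under tungstate was set beside that in untreated mice. The 2 comparisons share no array, though they share the estimate of the spread. In untreated mice 2245 genes were called, 1106 higher (8.27%) and 1139 lower (8.52%). Of the 137 genes called under tungstate, 119 were called in the same direction without it (71 higher and 48 lower), which is 86.9% of the treated and 5.30% of the untreated calls, and 0 were called in the opposite direction. Across all tested genes the 2 differences had a Pearson correlation of 0.778, given as a description. Of the 2245 genes called in untreated mice 97.0% had the same sign under tungstate and 94.7% a smaller difference, the median ratio being 0.506. Those genes were chosen by their untreated difference. Of the genes called under tungstate, which were chosen the other way, 82 of 137 were smaller than in untreated mice, with a median ratio of 0.908.

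**Figure D4:**
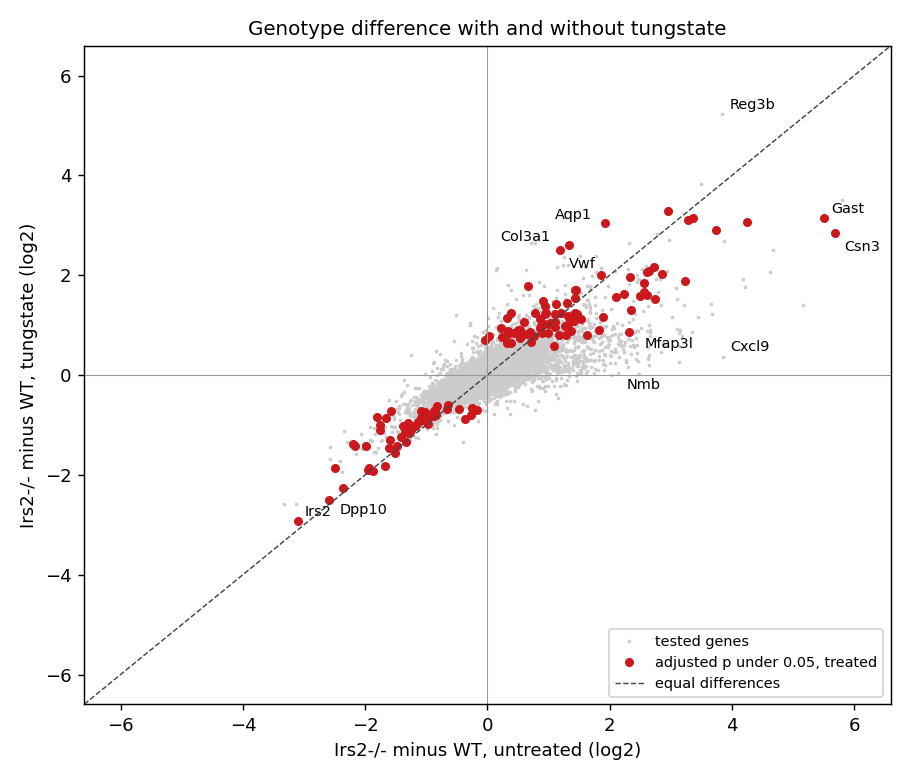
Genotype difference (Irs2-/- minus WT, log2) under tungstate (vertical axis) against that in untreated mice (horizontal axis) for the 13369 tested genes (grey), with the 137 genes called under tungstate in red and a dashed line of equal differences. Irs2 and Dpp10 lie on the line, Gast and Csn3 below it, Nmb, Mfap3l and Cxcl9 between 0.04 and 0.44 on the vertical axis, and Aqp1, Col3a1, Vwf and Reg3b above the line.

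The difference between the comparisons was itself tested, and 3 genes passed (0.0224% of those tested, with 862 at an unadjusted p under 0.05), namely Gast, Nmb and Mfap3l. Mfap3l, a membrane protein, was at 5.60 and 5.73 against 6.21 and 6.00 under tungstate and at 5.68 and 5.52 against 8.09 and 8.01 without it. All 3 had the smaller genotype difference under tungstate. The number of genes passing was 0 without any of the 4 WT arrays or without Irs2-/- untreated replicate 2, 10 without Irs2-/- untreated replicate 1, and 12 and 5 without Irs2-/- treated replicates 1 and 2. Conversely, 18 genes were called under tungstate and not in untreated mice, 14 higher and 4 lower. Col3a1, Tek and Plvap are among them, and so are Cavin2, a protein of caveolae (6.44 and 7.09 against 8.71 and 8.38), Podxl, a sialomucin of vessel lumens (8.13 and 8.03 against 8.90 and 8.78), Car4, a carbonic anhydrase of capillaries (6.39 and 6.82 against 7.96 and 7.74), and Timp3, an inhibitor of matrix proteases (8.87 and 8.98 against 9.82 and 9.62). The 4 that were lower were Pkm, Mpp6, Lrp8 and Lrrn2. None of the 18 passed the interaction test, and the smallest adjusted p among them was 0.411, that of Timp3, so a difference from untreated islets was not shown for any of them.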

How the data were processed

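Islet RNA was hybridised to 8 Affymetrix arrays, with 2 arrays in each of 4 groups. The deposited file holds log2 values for every probe set, which the authors made with RMA (affy, R 2.7.0), per the submitters' processing notes. No source used here gives scan dates or batches. The arrays hold 45037 probe sets and 64 controls, and 34945 of the probe sets could be assigned to exactly 1 gene. For each of 18193 genes the brightest probe set on average over the 8 arrays was kept. Genes with a mean under the 40th percentile (log2 5.27) were left out (4824), so 13369 were tested. Group labels play no part in this filter, but a gene can pass it through 1 group alone. In 14 of the 85 genes called higher both treated WT arrays were under log2 5.27. In 3 of the 52 called lower both treated Irs2-/- arrays were.

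A mean per group was fitted to all 8 arrays in limma 3.58.1 (R 4.3.3), with variances moderated by empirical Bayes (4 residual degrees of freedom, 3.89 prior). Adjustment for multiple tests was by Benjamini and Hochberg within each contrast. The median SE of a genotype difference was 0.14 and that of the interaction 0.20, and the number of arrays limits the precision. Data were simulated with independent normal noise that was equal in all groups, taking each gene's moderated variance as the true one. With 200 of 13369 genes changed, 89.2% of log2 changes of 1 and 99.2% of changes of 2 were recovered in the simulated treated comparison, and 5.16% of calls were false. Whether these shares hold for the measured arrays was not tested. Among the measured arrays the treated Irs2-/- pair and both untreated pairs (Pearson r 0.98 each) were less alike than the treated WT pair (r 0.992). Promoters were taken from RefSeq tables by symbol.

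Genes were named by rule: Irs2; the 15 largest called differences each way; up to 4 members of each of 30 gene lists by p-value; 26 fixed genes, 25 with a probe set; and interaction calls. 29 of the 88 genes printed lie outside the rule and were chosen after their values were seen. The comparison and the lists were chosen with earlier results of these data known, so no list is independent support. Alternatives were other filters, moderation, normalization, probe set choices, the treated arrays alone, a replicate block, array weights, an acinar covariate, other thresholds and leaving out each array.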

Additional observations from a re-analysis of the deposited data

Results flagged for a closer look

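In 3 genes the genotype difference under tungstate differed from that in untreated mice by the interaction test. For Gast it was 3.15 under tungstate and 5.52 without it, a difference of -2.37 ± 0.19 (adjusted p = 0.021). For Nmb the values were 0.04 and 2.13, a difference of -2.09 ± 0.20 (adjusted p = 0.0263). For Mfap3l they were 0.44 and 2.45, a difference of -2.01 ± 0.18 (adjusted p = 0.0263). In all 3 the treated Irs2-/- arrays lay below the untreated Irs2-/- arrays, and the 4 WT arrays lay close together.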

How the results depend on the processing

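Against 137 calls (85 higher, 52 lower) and 3 interaction calls, variance trend with robust moderation gave 224 (129 and 95), averaging all probe sets of each gene 77 (49 and 28), the acinar covariate 290 (244 higher), an adjusted p under 0.1 516 (303 and 213; interaction 13), a 2-fold minimum 80 (54 and 26), the treated arrays alone 26 lower, quantile normalization 133 higher, and all probe sets 1 for the interaction. Leaving out 1 array gave 3 to 679 calls (1 to 423 higher, 2 to 256 lower) and 0 to 12 for the interaction. A lone array was then assumed to vary like the other groups. The remaining counts stayed within 1.5 times of the main ones. The cause of these shifts was not tested. With the replicate block 176 genes were called (120 of the 137 among them). Deviations from the group mean, between arrays of the same number, had a correlation of -0.0658 for the 2 treated groups. It was 0.418 for the 2 untreated groups, 0.22 for the 2 WT groups and 0.0995 for the 2 Irs2-/- groups. Treated WT with untreated Irs2-/- gave 0.191, and untreated WT with treated Irs2-/- 0.0677. Whether arrays of the same number share a batch was not tested. The 137 genes kept their direction in each setting where their probe set or the mean of their probe sets was tested. In the fits with 1 array left out, and where only the filter or the moderation changed, this was fixed in advance. It was also fixed with the treated arrays alone, the replicate block and the array weights. With 2 arrays in each group, these settings leave the difference of each gene unchanged. Of 70 further probe sets, 5 had the opposite sign. Uncalled genes changed sign: with 1 array left out, Cxcl9 ranged from -0.0541 to 0.783, Gcg from -0.0668 to 0.091, Ins2 from -0.0245 to 0.00777 (and 0 with quantile normalization), Nmb from -0.0081 to 0.0902 and Pecam1 from -0.000915 to 1.45.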
